A study of Mus musculus with 24 samples.

Results

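A group of 9 mouse genes whose human counterparts are linked to amyotrophic lateral sclerosis (ALS) or frontotemporal dementia was followed in microglia that lack 1 or both copies of 3110043O21Rik, the mouse ortholog of C9orf72. The 9 genes, Tardbp, Sod1, Grn, Tmem106b, Optn, Tbk1, Sqstm1, Vcp and Ubqln2, were chosen by name from the disease genetics. The choice used no value as a rule, but earlier results of these data were known. They are 9 of the 20636 genes in each deposited table of TPM, transcript abundance scaled to a fixed total per library, and all 9 are listed at both ages. Microglia, the resident macrophages of the brain, were taken from 24 mice by papain digestion of brains without meninges, bead removal of myelin and a magnetic sort for CD11b, and their polyadenylated RNA was sequenced. Transcripts of 8 of the 9 genes were found in TPM in every animal, and no change with genotype passed the test for any of the 9 genes at either age.

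There were 6 groups of 4 mice, all labelled C57BL/6J. At 3 months and again at 17 months these were wild types (WT), heterozygous knockouts with 1 intact copy of the gene (HET) and homozygous knockouts with none (HOM). The columns of the tables are headed by separate animal numbers, and single animals are named here by genotype and that number. The table headers call the 17-month heterozygotes hemi. How the allele was made, whether it acts in all cells and whether the controls were littermates is not given in the sources used here.

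A repeat expansion in C9orf72 is a frequent inherited cause of both diseases, and the C9orf72 protein works in a complex with Smcr8 and Wdr41 that acts on membrane traffic, autophagy and lysosomes. The 9 genes fall along neighbouring routes. Tardbp encodes TDP-43, the RNA-binding protein that aggregates in most ALS, Sod1 encodes a cytosolic superoxide dismutase, and Grn and Tmem106b act in the lysosome. Sqstm1 (p62) and Optn are receptors that hand ubiquitinated cargo to autophagy, Tbk1 is the kinase that phosphorylates such receptors, and Vcp and Ubqln2 bring ubiquitinated proteins to the proteasome or pull them out of complexes and membranes.

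The targeted transcript checked the labels. At 3 months 3110043O21Rik stood at 42.6% of the wild-type mean in heterozygotes and 0.610% in homozygotes, and at 17 months at 48.5% and 0.243% (exact permutation test, two-sided, p = 0.0286 for each, the smallest p that the 70 assignments of 4 against 4 can give). All 10 microglial markers were present in every animal, with a summed level from 28814 to 34918 TPM at 3 months and from 17357 to 25523 TPM at 17 months. Every homozygous library was deeper than any other of its age, with 30.6 to 33.8 M alignments against 21.8 to 28.9 M at 3 months and 40.7 to 46.4 M against 16.7 to 37.1 M at 17 months. The part of depth in the genotype differences was not tested. HET-8304 stood apart at 3 months, with the highest summed oligodendrocyte (2517 TPM), neuron (41.6 TPM) and choroid plexus (3695 TPM) markers. In HET-7796 of 17 months the TPM summed to 78.9% of the full scale over the genes listed, the least of all 24. Neutrophil markers were highest in HET-7796 (11134 TPM) and HET-7791 (10761 TPM), where the other animals of 17 months held 412 to 5966 TPM. By Y-linked transcripts the males were 1 WT, 4 HET and 2 HOM at 3 months and 1 WT, 0 HET and 3 HOM at 17 months, so sex and genotype were not balanced.

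The 9 transcripts spanned a wide range of levels in microglia. Grn, which encodes progranulin, a secreted and lysosomal protein, was the most abundant of the 9 at 1777 ± 84.7 TPM over the 12 animals of 3 months (SD) and 1602 ± 164 TPM over the 12 of 17 months. Only 55 of 11587 genes kept at 3 months and 82 of 11792 at 17 months had a higher mean TPM than Grn. Sod1 came next with 309 and 397 TPM at the 2 ages, then Sqstm1 with 217 and 234 TPM and Vcp with 187 and 144 TPM. These 4 genes were all above the 93rd percentile of the genes kept (93.6 for Vcp at 17 months was the lowest).

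The kinase and the RNA-binding protein stood lower. Tbk1 had a mean level of 52.7 TPM at 3 months and 35.9 TPM at 17 months, Tardbp 30.6 and 20.98 TPM, Tmem106b 27.1 and 19.0 TPM and Ubqln2 19.5 and 17.4 TPM. Tardbp and Tmem106b were neighbours whose ranges overlapped, with Tardbp above Tmem106b in 8 of 12 animals at 3 months and in 6 of 12 at 17 months. Ubqln2 lay below Tmem106b in all 12 animals at 3 months and in 9 of 12 at 17 months. Sqstm1 and Vcp had overlapping ranges at 3 months, although Sqstm1 was the higher of the 2 in each of the 12 animals. Every other pair of neighbours in the order kept apart at both ages.

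Levels within a gene varied little between animals for most of the 9. At 3 months the coefficient of variation over the 12 animals was 4.77% for Grn, 5.71% for Vcp, 6.98% for Sqstm1 and 7.72% for Sod1, and it was highest for Tardbp at 14.1% among the 8 detected in all animals. At 17 months it ran from 6.17% for Sod1 to 20.1% for Tmem106b. The plot of levels by animal shows each value.

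**Figure D1:**
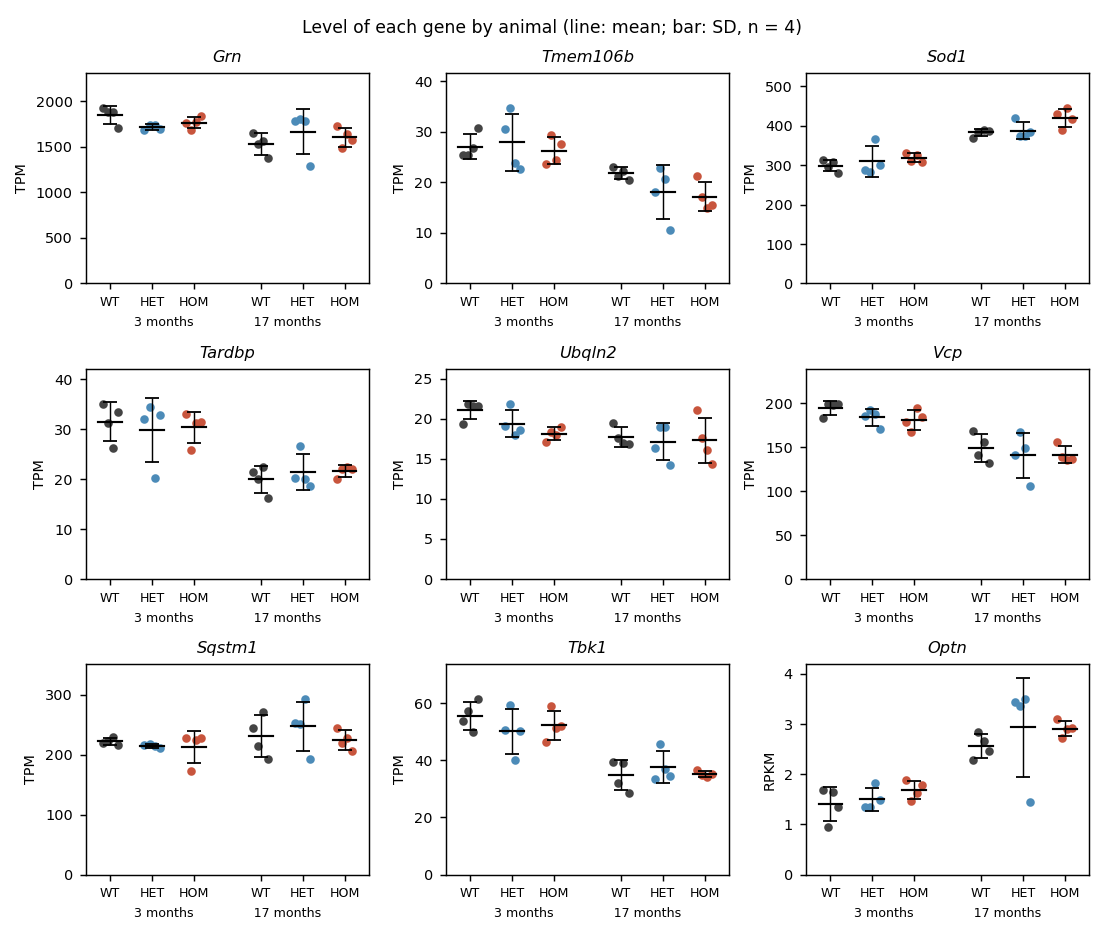
Level of each of the 9 genes in every animal, on the vertical axis in TPM (RPKM for Optn), by genotype and age on the horizontal axis, with 4 animals per group. Dots are animals, horizontal lines are group means and bars are 1 SD. The genotypes overlap in most panels, and the 4 wild types lie above the 4 homozygotes for Ubqln2 at 3 months and below them for Sod1 at 17 months.

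Optn gave different answers in the 2 kinds of table. In TPM the 4 wild types of 3 months were listed at 1.06, 0, 2.85 and 1.33, the heterozygotes at 0, 0, 0 and 2.98, and the homozygotes at 0, 0, 0.0121 and 3.03e-06. The wild types of 17 months were listed at 3.09e-07, 0.650, 0 and 1.09, the heterozygotes at 1.09, 0, 0 and 0, and the homozygotes at 0.906, 1.18e-07, 2.22 and 0.320. In all 6 animals of 3 months and 4 of 17 months stood at exactly 0. In the RPKM tables, reads scaled by transcript length and by the total of alignments, which the authors deposited beside the TPM, each of the 24 animals had a value, from 0.951 to 1.88 RPKM at 3 months and from 1.45 to 3.49 RPKM at 17 months.

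Those RPKM stand for 20.7 to 58.4 alignments per kilobase at 3 months and 38.1 to 134.8 at 17 months, so a listed 0 for Optn in TPM does not show that its transcript was absent. Such a discord was uncommon, since 106 of 10314 genes with a mean of at least 1 RPKM had a mean under 1 TPM at 3 months (1.03%) and 116 of 10639 at 17 months (1.09%). The cause was not tested. Optn was left out of the TPM fits by the minimum mean of 1 TPM, so its genotype values below come from the RPKM tables, a choice made after its values were seen.

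Sod1 also ranked differently in the 2 kinds of table. Its mean TPM was 6.59 times its mean RPKM at 3 months and 5.15 times at 17 months. For 6 of the others that ratio lay between 2.01 and 2.22 at 3 months and between 1.64 and 1.81 at 17 months, and for Vcp it was 3.23 and 2.56. As a result Sod1 was the second of the 9 by TPM at both ages, and by RPKM the fourth at 3 months (47.0 RPKM) and the third at 17 months (77.1 RPKM).

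The sequences just upstream of 3 members are shown because Sod1 and Tmem106b had the highest and the lowest log2 change of homozygotes against wild types at 17 months and Optn had the lowest level. They are 100 bases on the sense strand from the RefSeq windows (GRCm38.p6), each ending just before the first transcript start in RefSeq or GENCODE, chr16:90220654-90220753 (plus strand) for Sod1, chr6:13069659-13069758 (plus strand) for Tmem106b and chr2:5064118-5064217 (minus strand) for Optn. Capitals mark the antioxidant response core TGACNNNGC on either strand, which NFE2L2 can bind, and TATAAA.
Sod1: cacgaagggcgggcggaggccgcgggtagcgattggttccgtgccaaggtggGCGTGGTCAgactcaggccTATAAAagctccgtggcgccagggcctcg
Tmem106b: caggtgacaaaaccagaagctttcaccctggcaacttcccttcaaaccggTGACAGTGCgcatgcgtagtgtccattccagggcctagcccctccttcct
Optn: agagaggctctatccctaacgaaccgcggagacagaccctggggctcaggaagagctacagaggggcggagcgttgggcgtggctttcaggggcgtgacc
RefSeq windows from 250 bases before to 50 after the start were held for 8 of the 9 genes, all but Ubqln2. TGACNNNGC on either strand was in 3 of these 8 (Sod1, Tmem106b and Vcp) and in 12.4% of all 32851 windows. TATAAA was in 3 (Sod1, Sqstm1 and Vcp) and in 13.6% of windows. From the RefSeq start its first base lay at -37 in Sod1, -1 in Sqstm1 and -249 in Vcp. The E-box CACGTG, the core of the element that TFEB binds, was in Tbk1 and in 7.15% of windows. In Tbk1 it began at base 6, after the start. The marked matches in the printed stretches did not overlap each other, and a match is only a description of the letters.

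The comparison of homozygotes with wild types asked what loss of both copies of the C9orf72 ortholog does to these transcripts. At 3 months limma called 0 of the 8 members tested at a Benjamini-Hochberg adjusted p under 0.05, where 0.0604% of all 11587 genes were called, and 1 member had an unadjusted p under 0.05, as 19.7% of genes did. The same fit at 17 months called 0 of 8, where 0.712% of 11792 genes were called, and 0 members had an unadjusted p under 0.05, as 18.6% of genes did. The 16 changes ran from -0.34 to 0.13 on the log2(TPM + 1) scale. In bulk RNA, fewer cells of a type and less RNA per cell cannot be told apart.

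The heterozygotes gave the same counts. Against wild types 0 of 8 members were called at 3 months, where 0.0432% of genes were, and 0 of 8 at 17 months, where 0.237% were. Between homozygotes and heterozygotes 0 of 8 were called at each age, where 0.0259% and 1.86% of genes were called. In these 4 comparisons 0 members reached an unadjusted p under 0.05. Of all genes 21.6% and 9.24% did so in heterozygotes against wild types at 3 and 17 months, and 8.55% and 13% between the mutants.

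The 95% intervals say what size of change the data leave possible. Over the 48 member comparisons the lowest bound was -0.74 and the highest 0.39, and the median interval reached 0.25 to each side of its estimate. For Grn at 3 months the homozygous change lay between -0.18 and 0.046, so a change as large as that of the targeted gene in heterozygotes (-1.16) lies outside it. The same holds for each member in the plot of changes, where the dotted line of the targeted gene falls outside all intervals. A p that misses the threshold does not show that the genotypes were alike.

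**Figure D2:**
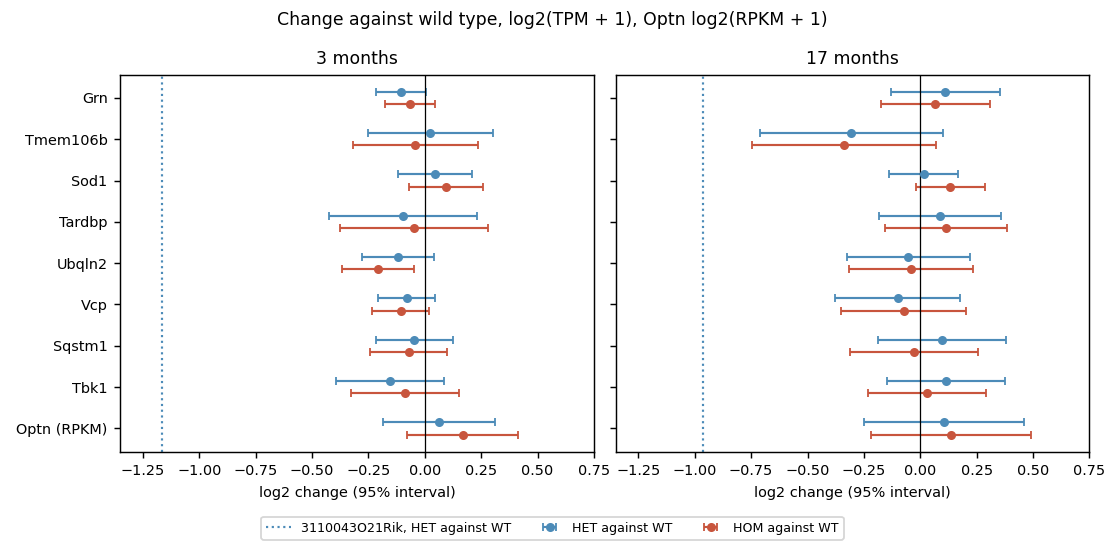
Log2 change against wild type with its 95% interval for each of the 9 genes, heterozygotes in blue and homozygotes in red, at 3 months (left) and 17 months (right). The horizontal axis is log2(TPM + 1), or log2(RPKM + 1) for Optn, and the dotted line is the heterozygous change of the targeted gene 3110043O21Rik (-1.16 and -0.97). The Ubqln2 interval of homozygotes at 3 months lies below 0, and the others cross it.

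At 3 months the members leaned the way all genes did. The change of homozygotes against wild types was below 0 in 7 of 8 members and in 75.2% of all genes, with a median of -0.068 for the members and -0.099 for all genes. For heterozygotes it was below 0 in 6 of 8 members and 70.9% of genes, with medians of -0.088 and -0.089. Centring each library on its own median moved the homozygous median of all genes to 0.014, and then 1 of 8 members was below 0 in homozygotes and 2 of 8 in heterozygotes, so that direction depends on the scaling. In the older animals the homozygous change was below 0 in 4 of 8 members and 40% of genes, with medians of 0.00069 and 0.054, and in 6 of 8 members after centring.

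Tardbp, the gene of TDP-43, lies on chromosome 4 (148612382 to 148627019, minus strand, GRCm38, GENCODE), 113.39 Mb from the targeted gene. At 3 months the wild types stood at 35.1, 31.3, 26.3 and 33.5 TPM and the homozygotes at 33.0, 25.9, 31.2 and 31.5 TPM. The groups overlapped, and the log2 change was -0.049 (95% interval -0.38 to 0.28). HET-8304, the library with high neuron and oligodendrocyte markers, had the lowest Tardbp of the age at 20.3 TPM, and the part of those markers in it was not tested. The 17-month means were 19.99 ± 2.72 TPM for wild types, 21.3 ± 3.59 for heterozygotes and 21.6 ± 1.12 for homozygotes (SD, n = 4), again with overlapping groups.

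Of 24 other RNA-binding protein genes, among them Hnrnpa1 and Matr3, 0 were called by limma in any of the 6 comparisons. The share of all genes called in these ran from 0.0259% to 1.86%. In homozygotes against wild types 1 of 24 had an unadjusted p under 0.05 at 3 months and 5 of 24 at 17 months. Of all genes 19.7% and 18.6% did so. The smallest p at 3 months was that of G3bp1, a stress granule nucleator, at 80.1 ± 2.62 against 89.2 ± 6.35 TPM (n = 4, limma adjusted p = 0.182). At 17 months it was that of Tial1, a splicing and stress granule protein, at 11.5 ± 3.87 against 5.03 ± 3.12 TPM (adjusted p = 0.123).

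Sod1 turns superoxide into hydrogen peroxide, and its gene lies on chromosome 16 (90220754 to 90226329, plus strand). At 17 months the wild types stood at 370, 385, 389 and 388 TPM, the heterozygotes at 421, 373, 374 and 384 TPM, and the homozygotes at 430, 391, 445 and 418 TPM. All 4 homozygotes lay above all 4 wild types, as they did for 9.5% of all genes, and HOM-7893 exceeded the highest wild type by little. The log2 change was 0.13 (95% interval -0.020 to 0.29, limma adjusted p = 0.343). In the RPKM table the change was 0.17 (adjusted p = 0.29) and the groups overlapped, and after median centring of the TPM it was 0.061.

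At 3 months Sod1 was at 299 ± 14.6 TPM in wild types and 319 ± 11.2 TPM in homozygotes (SD, n = 4), with overlapping groups and a log2 change of 0.094 (limma adjusted p = 0.507). The highest Sod1 of that age was in HET-8304 at 366 TPM, where the other heterozygotes stood at 288, 284 and 300 TPM. The homozygous effect at 17 months minus that at 3 months was 0.039 (95% interval -0.17 to 0.25, adjusted p = 0.848), and -0.15 after median centring.

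The list of superoxide and peroxide defence held 23 genes, such as Sod2, catalase and the peroxiredoxins, of which 22 were tested at 3 months and 23 at 17 months. Nqo1, a quinone reductase that NFE2L2 induces, was the only one called, in a comparison that called 0.712% of all genes. It rose in homozygotes at 17 months, from 1.02, 0.968, 0.557 and 1.15 TPM in wild types to 2.07, 2.01, 2.65 and 3.02 TPM, with no overlap, as for the 9.5% of genes above. The log2 change was 0.84 (SE 0.17, limma adjusted p = 0.0499, the other settings from 0.037 to 0.16), and the call held in 5 of 18 other settings, over which the change ran from 0.72 to 1.33. It ended without 9 of the 12 animals in turn (WT-7782, WT-7783, WT-7785, WT-7943, HET-7791, HET-7795, HOM-7893, HOM-7899 or HOM-7901). It also ended with a pseudocount of 0.1 (1.33), without the filter (0.84), with median centring (0.77) and with a sex term (1.01). Choroid plexus and ependymal markers summed to 312 to 1447 TPM in wild types and 1528 to 4358 TPM in homozygotes of 17 months, and endothelial and mural markers to 236 to 308 and 350 to 469 TPM. Monocyte markers summed to 43.7 to 129 and 147 to 790 TPM, and neutrophil markers to 412 to 2487 and 2223 to 5966 TPM. Oligodendrocyte markers went the other way, at 2352 to 6583 and 803 to 2020 TPM. HET-8304, with the highest choroid plexus and endothelial sums at 3 months (3695 and 515 TPM), also had the highest Nqo1 of that age at 3.22 TPM. The part of all these markers in the Nqo1 values was not tested. At 3 months 0 of 22 were called in homozygotes against wild types and 3 had an unadjusted p under 0.05, as 19.7% of genes did. At 17 months 7 of 23 had one, as 18.6% of genes did. The smallest p at 3 months was that of Txn1, thioredoxin, at 64.5 ± 6.42 against 53.5 ± 5.06 TPM (limma adjusted p = 0.165).

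Grn lies on chromosome 11 (102430315 to 102437048, plus strand). The wild types of 3 months had 1924, 1879, 1885 and 1706 TPM, the heterozygotes 1680, 1744, 1744 and 1697 TPM, and the homozygotes 1766, 1686, 1774 and 1840 TPM. The 4 heterozygotes lay below 3 of the 4 wild types, and WT-8326 made the groups overlap. The heterozygous change was -0.11 (95% interval -0.22 to 0.0052, limma adjusted p = 0.252), and the homozygous change was -0.065 (adjusted p = 0.497). After median centring these were 0.0050 and 0.048.

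At 17 months the wild types had 1655, 1532, 1569 and 1375 TPM of Grn, the heterozygotes 1787, 1803, 1787 and 1294 TPM, and the homozygotes 1727, 1482, 1637 and 1571 TPM. HET-7796 was far below the other 3 heterozygotes, which lay close together and above all wild types. In RPKM the heterozygotes were more evenly spread, at 1051, 906, 986 and 849, and the wild types had 880, 878, 878 and 816. With all animals the heterozygous change was 0.11 in TPM (limma adjusted p = 0.917) and 0.13 in RPKM (adjusted p = 0.611). The heterozygous effect at 17 months minus that at 3 months was 0.22 in TPM (95% interval -0.038 to 0.47, adjusted p = 0.427). Without HET-7796 that difference was 0.33 with an adjusted p of 0.0468, and over all alternatives the adjusted p ran from 0.0468 to 0.714. HET-7796 is the library with the lowest listed TPM, whose part in its Grn level was not tested. HET-7796 and HET-7791 had the highest neutrophil markers of that age (11134 and 10761 TPM), with 1294 and 1787 TPM of Grn. The part of these markers was not tested either.

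Tmem106b encodes a lysosomal membrane protein whose common variants modify risk in progranulin carriers, and its gene lies on chromosome 6 (13069759 to 13089269, plus strand). The wild types of 17 months had 23.1, 21.2, 22.4 and 20.5 TPM, the heterozygotes 18.2, 22.8, 20.7 and 10.7 TPM, and the homozygotes 21.2, 17.0, 15.01 and 15.5 TPM. In TPM 3 of the 4 homozygotes lay below every wild type, and HOM-7835 lay among them. The homozygous change of -0.34 was the lowest of all member changes, with a 95% interval from -0.74 to 0.069 (limma adjusted p = 0.369).

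In the RPKM table of 17 months the wild types had 13.1, 13.1, 13.6 and 13.2 RPKM of Tmem106b, the heterozygotes 11.4, 12.4, 12.4 and 7.42 RPKM and the homozygotes 12.6, 10.6, 9.16 and 10.1 RPKM. Here every heterozygote and every homozygote lay below every wild type, as they did for 3.21% and 4.14% of genes. The changes of -0.28 (adjusted p = 0.475) and -0.30 (unadjusted p = 0.0449, adjusted p = 0.176) were not called by limma. Both rest on the same 4 wild types. The heterozygous change in TPM was -0.31 with all animals and -0.085 without HET-7796.

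At 3 months Tmem106b showed no such order, and the means were 27.1 ± 2.51 TPM for wild types, 27.9 ± 5.73 for heterozygotes and 26.3 ± 2.68 for homozygotes (SD, n = 4). The homozygous effect at 17 months minus that at 3 months was -0.30 (95% interval -0.79 to 0.20, limma adjusted p = 0.485), and -0.48 after median centring. The summed microglial markers at 17 months ran from 20846 to 24614 TPM in wild types and from 17357 to 23322 TPM in homozygotes, with HOM-7835, the homozygote with the most Tmem106b, at the top of its group. Their part in the Tmem106b values was not tested.

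The lysosomal list held 28 genes, from cathepsins and Psap to the proton pump. Lamp2, a lysosomal membrane protein needed for autophagosome turnover, was the only one called. The call came only between homozygotes and heterozygotes at 17 months, where 1.86% of all genes were called. Homozygotes had 225, 167, 165 and 166 TPM of Lamp2 and heterozygotes 230, 285, 289 and 228 TPM. The groups did not overlap, as for 1.17% of genes in that direction. Lamp2 was lower in homozygotes by a log2 change of -0.51 (SE 0.12, limma adjusted p = 0.0425, the other settings from 0.0082 to 0.15), and the call held in 6 of 20 other settings, over which the change ran from -0.62 to -0.46. It ended without any of WT-7782, WT-7783, WT-7785, WT-7943, HET-7794, HET-7795, HOM-7893, HOM-7899 or HOM-7901. It ended too with a pseudocount of 0.1, without the filter, with a mean of at least 5 TPM, with a sex term (-0.62) and with only the 2 genotypes compared. In the same comparison limma called 6 of 7 endothelial and mural markers higher in homozygotes (Cldn5, Ly6c1, Pdgfrb, Pecam1, Rgs5 and Vtn), whose list summed to 350 to 469 TPM against 146 to 222 TPM in heterozygotes. Of 10 microglial markers it called Gpr34, a receptor of microglia, lower (-0.73, adjusted p = 0.0138). Their part in the Lamp2 values was not tested. The wild types stood at 242 ± 13.5 TPM, and their difference from homozygotes was not called (adjusted p = 0.0897). At 3 months the smallest p of the list was that of Gaa, the acid alpha-glucosidase that digests glycogen, at 100 ± 4.33 TPM in homozygotes against 122 ± 5.35 TPM in wild types (adjusted p = 0.0815). In homozygotes against wild types 6 of 28 had an unadjusted p under 0.05 at each age. Of all genes 19.7% did so at 3 months and 18.6% at 17 months.

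Sqstm1 lies on chromosome 11 (50199366 to 50210827, minus strand). The 3-month means were 222 ± 5.50 TPM for wild types, 215 ± 2.89 for heterozygotes and 213 ± 27.1 for homozygotes (SD, n = 4). The wide spread of the homozygotes came from HOM-8285 at 172 TPM, while the other 3 stood at 227, 224 and 228 TPM. At 17 months Sqstm1 ran from 192 to 272 TPM in wild types, from 193 to 292 in heterozygotes and from 206 to 245 in homozygotes, with overlapping groups. The homozygous changes were -0.071 and -0.029 (limma adjusted p = 0.645 and 0.939).

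Optn lies on chromosome 2 (5020642 to 5064051, minus strand). In RPKM the wild types of 3 months had 1.69, 0.951, 1.64 and 1.35, the heterozygotes 1.35, 1.34, 1.83 and 1.48 and the homozygotes 1.88, 1.46, 1.63 and 1.78. WT-8323 was the lowest animal, and the means were 1.41 ± 0.340, 1.502 ± 0.228 and 1.69 ± 0.185 RPKM (SD, n = 4). The means of 17 months were 2.56 ± 0.241, 2.93 ± 0.990 and 2.91 ± 0.153 RPKM. The homozygous changes on the log2(RPKM + 1) scale were 0.17 (95% interval -0.079 to 0.41, limma adjusted p = 0.569) and 0.14 (-0.22 to 0.49, adjusted p = 0.633), and the groups overlapped at both ages. Optn was called in 0 of the 4 comparisons with wild types, where 0.0557% (HOM) and 0.00928% (HET) of genes in RPKM were called at 3 months and 8.34% and 0.152% at 17 months. HET-7796 had 1.45 RPKM where the other heterozygotes had 3.44, 3.36 and 3.49, and without it the heterozygous change of 17 months was 0.32 instead of 0.10 (adjusted p = 0.177).

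Tbk1 lies on chromosome 10 (121546455 to 121586787, minus strand). The 3-month means were 55.6 ± 4.89 TPM for wild types, 50.1 ± 7.87 for heterozygotes and 52.3 ± 5.12 for homozygotes, and the lowest animal was HET-8304 at 40.2 TPM. Those of 17 months were 34.8 ± 5.31, 37.7 ± 5.46 and 35.2 ± 0.914 TPM (SD, n = 4). The 4 homozygotes of 17 months were close together, from 34.3 to 36.5 TPM, inside the range of the wild types from 28.6 to 39.5 TPM. The homozygous changes were -0.088 and 0.030 (limma adjusted p = 0.687 and 0.929).

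None of the 23 other autophagy genes was called by limma in any comparison, where 0.0259% to 1.86% of all genes were. In homozygotes 7 of 23 had an unadjusted p under 0.05 at 3 months and 6 of 23 at 17 months. Of all genes 19.7% and 18.6% did so. At 3 months 21 of 23 had a change below 0 in homozygotes, as 75.2% of all genes did, with a median of -0.14 against -0.099 for all genes. Of the 23, 7 lay apart below the wild types, as did 15.1% of genes. The smallest p was that of Atg13, a subunit of the ULK1 kinase complex, at 15.6 ± 0.558 against 19.0 ± 0.394 TPM (adjusted p = 0.0896). At 17 months it was that of Atg101, another subunit of the same complex, at 48.4 ± 3.35 against 35.8 ± 2.79 TPM (adjusted p = 0.0726), and 12 of 23 were below 0.

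Of 16 genes of the TBK1 complex and its signalling 0 were called in any comparison, where 0.0259% to 1.86% of all genes were. In homozygotes 5 of 16 had an unadjusted p under 0.05 at 3 months and 4 of 16 at 17 months. Of all genes 19.7% and 18.6% did so. Mavs, the mitochondrial adaptor of RNA sensing, had the smallest p at 3 months, at 45.7 ± 3.27 against 53.5 ± 1.51 TPM (n = 4, limma adjusted p = 0.111). Tnip2, a ubiquitin-binding inhibitor of NF-kB, had the smallest at 17 months, at 37.1 ± 4.49 against 25.6 ± 3.98 TPM (adjusted p = 0.0859). The list's median change was -0.088 at 3 months and 0.17 at 17 months, where all genes had -0.099 and 0.054.

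Vcp, the ATPase that extracts ubiquitinated proteins, lies on chromosome 4 (42979963 to 43000507, minus strand), 7.75 Mb from the targeted gene. It was the nearest of the 9 to the knocked-out locus. At 3 months the wild types had 183, 199, 198 and 199 TPM, the heterozygotes 186, 193, 188 and 170 TPM and the homozygotes 178, 167, 194 and 184 TPM. All 8 mutants lay below 3 of the wild types, and WT-8322 made the groups overlap. The homozygous change was -0.11 (95% interval -0.23 to 0.020, limma adjusted p = 0.33), beside the median of -0.099 over all genes, and 0.0064 after median centring. In RPKM it was -0.033 (adjusted p = 0.87). At 17 months Vcp was at 149 ± 16.2, 141 ± 25.9 and 142 ± 9.67 TPM, with HET-7796 lowest at 105 TPM.

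Among 18 VCP cofactors 0 were called in any comparison, where 0.0259% to 1.86% of all genes were. In homozygotes 4 of 18 had an unadjusted p under 0.05 at 3 months and 0 at 17 months. Of all genes 19.7% and 18.6% did so. Faf2, which recruits Vcp to the endoplasmic reticulum, had the smallest p at 3 months, at 26.8 ± 0.837 against 31.0 ± 2.29 TPM (limma adjusted p = 0.164). Ufd1l, a subunit of the Vcp adaptor that binds ubiquitin chains, had the smallest at 17 months, at 30.7 ± 1.52 against 27.2 ± 2.67 TPM (adjusted p = 0.314).

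Ubqln2, a shuttle between ubiquitinated proteins and the proteasome, is a gene of 1 exon on chromosome X (153498227 to 153501570, plus strand). At 3 months the wild types stood at 19.4, 21.8, 21.6 and 21.6 TPM, the heterozygotes at 19.0, 21.9, 18.04 and 18.6 TPM and the homozygotes at 17.1, 18.4, 18.01 and 19.0 TPM. All 4 homozygotes lay below all 4 wild types, as for 15.1% of genes, with WT-8322 closest to them. The log2 change of -0.21 (95% interval -0.37 to -0.049) had the smallest p of the 48 member comparisons, unadjusted p = 0.0144 and limma adjusted p = 0.171. After median centring the change was -0.095, and in RPKM it was -0.13 (adjusted p = 0.362), where the groups did not overlap either, as for 7.11% of genes.

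The Ubqln2 difference was not seen at 17 months, where the 3 genotypes stood at 17.7 ± 1.21, 17.1 ± 2.32 and 17.3 ± 2.84 TPM (SD, n = 4). HOM-7835 was the highest of that age at 21.1 TPM and HET-7796 the lowest at 14.2 TPM. The difference between the homozygous effects of the 2 ages was 0.17 (95% interval -0.14 to 0.47, limma adjusted p = 0.528), so the ages were not shown to differ, and after median centring it was -0.020. With sex as a term the 3-month change was -0.20.

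Of 20 genes for ubiquilins, shuttle factors and proteasome subunits 0 were called in any comparison, where 0.0259% to 1.86% of all genes were. In homozygotes at 3 months 8 of 20 had an unadjusted p under 0.05, where 19.7% of all genes did. At 17 months 1 of 20 had one, where 18.6% did. The smallest p at 3 months was that of Ubqln4, a paralog of Ubqln2, at 28.8 ± 2.34 against 35.7 ± 2.18 TPM (n = 4, limma adjusted p = 0.0875). Its groups did not overlap, as for 15.1% of genes in that direction. At 17 months it was that of Psmd4, a ubiquitin receptor of the proteasome, at 124 ± 6.37 against 108 ± 5.34 TPM (adjusted p = 0.229).

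Beyond the 9, 28 further ALS and dementia genes were measured, among them Trem2 and Matr3, and some of them stand in the other lists too. Mapt, the gene of tau, was the only one called, in heterozygotes against wild types at 17 months, where 0.237% of all genes were called. It fell from 5.11, 9.81, 4.50 and 10.7 TPM in wild types to 2.39, 1.57, 1.45 and 2.17 TPM in heterozygotes, with no overlap, as for 3.25% of genes in that direction. The log2 change was -1.49 (SE 0.25, limma adjusted p = 0.0303, the other settings from 0.014 to 0.15), and the call held in 5 of 19 other settings, over which the change ran from -1.86 to -1.25. It ended without any of WT-7783, WT-7943, the 4 heterozygotes, HOM-7835, HOM-7899 or HOM-7901. It ended too without the filter, with median centring (-1.48), with quantile normalization (-1.42), in RPKM (-1.25) and with only the 2 genotypes compared. The fall was not limited to heterozygotes. The homozygotes of 17 months had 3.24, 2.04, 3.27 and 3.79 TPM of Mapt, also all below the wild types. Their difference from wild types was not called (limma adjusted p = 0.0712), and it was called in 3 of 19 other settings. Summed over 7 oligodendrocyte markers, the wild types of 17 months held 2352 to 6583 TPM and the heterozygotes 418 to 1243 TPM. The homozygotes held 803 to 2020 TPM. Neuron markers summed to 11.96 to 53.4, 8.93 to 28.6 and 9.82 to 24.9 TPM in the same order. The part of such cells in the Mapt values was not tested. In homozygotes 4 of 28 had an unadjusted p under 0.05 at 3 months and 7 of 28 at 17 months. Of all genes 19.7% and 18.6% did so.

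Smcr8 and Wdr41, the partners of the C9orf72 protein, were not called in any comparison, where 0.0259% to 1.86% of all genes were. Smcr8 had an unadjusted p of 0.0389 in heterozygotes at 3 months (22.8 ± 5.72 against 28.3 ± 2.62 TPM, limma adjusted p = 0.207), where 21.6% of genes were under 0.05. At 17 months its changes leaned the other way, at 0.17 in heterozygotes and 0.24 in homozygotes (limma adjusted p = 0.899 and 0.466). In RPKM the homozygous change was 0.24 (unadjusted p = 0.0299, adjusted p = 0.14). The heterozygous effect at 17 months minus that at 3 months was 0.50 in TPM (unadjusted p = 0.0334, adjusted p = 0.297).

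Whether a genotype effect differed between the ages was tested over all 24 animals. None of the 8 members was called in homozygotes, where 0.254% of 11436 genes were, or in heterozygotes, where 0.691% were, and 0 members had an unadjusted p under 0.05 in either, as 21.8% and 14.4% of genes did. The largest differences were those of Tmem106b (-0.30 in homozygotes and -0.33 in heterozygotes) and Tbk1 (0.27 in heterozygotes). Of 182 listed genes kept at both ages, members included, limma called 2, both in heterozygotes. Mapt differed by -2.25 (adjusted p = 0.0123) and Kif5a, a neuronal kinesin, by -4.26 (adjusted p = 0.0404). HET-8304 had the highest neuron, oligodendrocyte, astrocyte, endothelial and choroid plexus markers at 3 months. In it Mapt was at 8.70 TPM and Kif5a at 661 TPM. The other heterozygotes of that age had 2.21 to 2.58 TPM and 67.5 to 198 TPM. Without HET-8304 the differences were -1.87 and -3.68, and Kif5a was then not called (adjusted p = 0.106). The wild types had 31.0, 23.0, 34.0 and 21.5 TPM of Kif5a at 3 months and 611, 1244, 92.9 and 1295 TPM at 17 months. Heterozygotes of 17 months had 232, 242, 128 and 251 TPM. Neuron markers summed to 11.96 to 53.4 TPM in the wild types of 17 months and to 8.93 to 28.6 TPM in the heterozygotes. Oligodendrocyte markers summed to 2352 to 6583 and 418 to 1243 TPM. The part of these markers in the Kif5a values was not tested.

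The ages stand in separate tables and were not tested against each other, so their levels are set side by side. Sod1 was the member most evenly higher at 17 months. Its wild-type mean was 299 TPM at 3 months and 383 TPM at 17 months, a ratio of 1.28, with ratios of 1.25 in heterozygotes and 1.32 in homozygotes. In each genotype all 4 older animals lay above all 4 younger ones, as for 6.87%, 4.23% and 12.4% of genes in wild types, heterozygotes and homozygotes. In RPKM the ratios were 1.64, 1.62 and 1.67, again with no overlap, as for 17.7%, 8.32% and 25.7% of genes.

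Tbk1 and Tardbp were lower at 17 months in TPM, with ratios of 0.63 in wild types for each. The older animals lay wholly below the younger in wild types and homozygotes for both genes, as 52.2% and 44% of genes did. In RPKM Tbk1 still lay apart in these 2 genotypes (ratios 0.80 and 0.83), as for 28.7% and 16.3% of genes, while Tardbp overlapped in all 3. Optn in RPKM was higher at 17 months, with ratios of 1.82, 1.95 and 1.72, and lay apart in wild types and homozygotes, as for 17.7% and 25.7% of genes.

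For other members the 2 kinds of table gave different pictures. Vcp was lower at 17 months in TPM in each genotype, with ratios of 0.77, 0.76 and 0.78 and no overlap, as for 52.2%, 27.4% and 44% of genes, and in RPKM its ratios were 0.998, 0.93 and 0.99 with overlap. Sqstm1 was higher without overlap in RPKM, with ratios of 1.30, 1.4 and 1.29, as for 17.7%, 8.32% and 25.7% of genes, and overlapped in TPM, with ratios of 1.04, 1.15 and 1.06. Grn had ratios of 0.83, 0.97 and 0.91 in TPM and 1.05, 1.18 and 1.12 in RPKM. Tmem106b had ratios of 0.80, 0.65 and 0.65 in TPM and 1.01, 0.77 and 0.80 in RPKM, and Ubqln2 0.84, 0.88 and 0.95 in TPM and 1.06, 1.07 and 1.15 in RPKM.

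**Figure D3:**
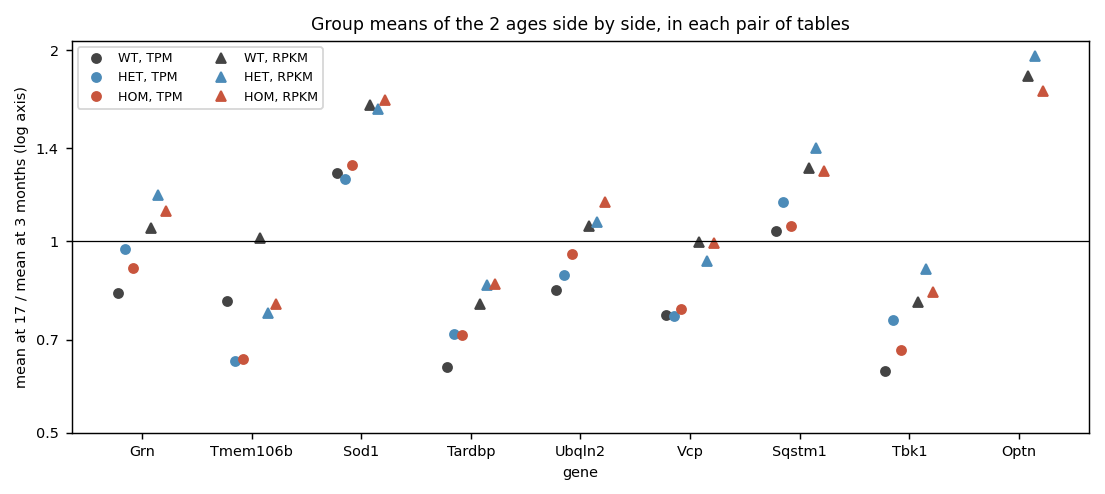
Ratio of the group mean at 17 months to that at 3 months for each of the 9 genes, on a log axis, with circles for TPM and triangles for RPKM and the genotypes in grey (WT), blue (HET) and red (HOM). Optn is shown in RPKM only. Sod1 lies above 1 and Tardbp and Tbk1 lie below 1 in both kinds of table, and Vcp lies near 0.77 in TPM and near 1 in RPKM.

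The genes whose levels followed each member most closely were sought among the 8712 genes whose mean reached 5 TPM at both ages, by the lower of the 2 Pearson correlations of log2(TPM + 1) over the 12 animals of each age. They are descriptions, and the points share libraries, genotype and the same scaling. Sod1 was followed by Prdx5, a peroxiredoxin (r = 0.87 and 0.85 at 3 and 17 months), Tmem134 and Anxa2. Tardbp was followed by Luc7l3 (r = 0.89 and 0.94) and Prpf38b, both splicing factors, and by Prosc. Tbk1 was followed by Bclaf1 (r = 0.95 and 0.93), Pik3ca and Smek1, and Tmem106b by Itfg1 (r = 0.94 and 0.94), Copb1 and Stag1.

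Grn was followed by Chst7, Aatf and Tmem115 (r = 0.85 and 0.85 for Chst7). Sqstm1 was followed by Fcgr1, an Fc gamma receptor (r = 0.84 and 0.87), Slc15a3 and Nucb1. Vcp was followed by Pcyox1 (r = 0.94 and 0.95), St3gal2 and Rps6ka1, and Ubqln2 by Aff1 (r = 0.91 and 0.91), Bcl2l13 and Polr2b. Among the members themselves the pair Tmem106b and Vcp had r = 0.89 at 17 months and 0.24 at 3 months, and HET-7796 was the lowest animal for both at 17 months. Sod1 and Tbk1 had r = -0.83 at 3 months and -0.30 at 17 months, and HET-8304 was the highest animal for Sod1 and the lowest for Tbk1 at 3 months.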

How the data were processed

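Per the labels, 24 libraries of sorted mouse microglia were made with a stranded kit and read from a single end. The authors deposited, for each age, a table of TPM summed to genes and a table of RPKM with the number of alignments, which normalise for transcript length and library size. Salmon 0.8.2, DESeq2, TopHat2 2.1.1, Partek 7.17.0918 and the build mm10 are named in the submitters' processing notes, with no role given. The annotation and the strand setting of the counting are not given in the sources used here, so reads of Sod1, Grn, Tardbp, Optn, Sqstm1 or Vcp and of the opposite-strand gene that overlaps each could be mixed. Genotypes came from the RPKM headers, matched to the TPM columns by animal number, with hemi taken as heterozygous.

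Values were tested as log2(TPM + 1) with limma 3.58.1 in R 4.3.3, with a trend, 3 genotype means per age, genes of at least 1 TPM on average over the 12 animals (11587 and 11792 kept), two-sided tests and Benjamini-Hochberg adjustment over all of them, called at 0.05. Changes of low genes are understated on this scale. The ages were compared as a difference of effects over 24 animals, and RPKM were treated alike. Nothing says that litters or days were shared, and p-values measure the spread between these animals. Sex was read from Y-linked transcripts.

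The members, lists, tests and settings were chosen with earlier results of these data known. The genes named are the 9 members, the partners of the target, every list gene called or else that with the smallest p in homozygotes at each age, and the 3 genes most like each member. A gene that this rule also names is not reported here. Kif5a, the Optn test in RPKM and the motif TATAAA were added after values were seen. Other settings were a pseudocount of 0.1, no filter, a mean of 5 TPM, median centring, quantile normalization, RPKM, a sex term, 2 genotypes alone and each animal left out.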

Additional observations from a re-analysis of the deposited data

Results flagged for a closer look

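Gaps within groups were tested in TPM, and in RPKM for Optn. In 6 of the 54 groups of 4 animals, 1 animal stood apart from the other 3 by more than the 95% limit of Dixon's gap test for 4 values. Chance passes that limit in about 1 of 20 groups. HET-7796 of 17 months was low for Grn, at 1294 TPM where the others stood between 1787 and 1803 TPM, and for Optn, at 1.45 RPKM where the others stood between 3.36 and 3.49 RPKM. Neutrophil markers summed to 11134 TPM in HET-7796 and to 10761 TPM in HET-7791, and HET-7791 had 1787 TPM of Grn and 3.44 RPKM of Optn. The part of these markers in the low values was not tested. HOM-8285 was low for Sqstm1 at 172 TPM (others 224 to 228 TPM). WT-8322 was low at 3 months for Vcp at 183 TPM (others 198 to 199 TPM) and for Ubqln2 at 19.4 TPM (others 21.6 to 21.8 TPM). HOM-7835 was high for Vcp at 156 TPM (others 135 to 138 TPM). The RPKM of these genes were not put to this test, and there the gaps to the nearest animal were mostly small. HET-7796 had 849 RPKM of Grn (others 906 to 1051). WT-8322 had 55.6 RPKM of Vcp (others 56.1 to 61.0) and 9.29 of Ubqln2 (others 9.46 to 10.4). HOM-7835 had 59.2 RPKM of Vcp (others 53.5 to 58.9), and HOM-8285 had 76.2 of Sqstm1 (others 102 to 107).

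The heterozygous effect differed between the ages for Mapt, by -2.25 on the log2 scale (SE 0.41, limma adjusted p = 0.0123), with a call in all 30 other settings that gave a value, the adjusted p reaching 0.043. It also differed for Kif5a, by -4.26 (SE 0.97, adjusted p = 0.0404, the others from 0.0020 to 0.12), with a call in 13 of 31 other settings, and the call ended without any of 17 of the 24 animals in turn, HET-8304 among them, and without the filter on low values. The value of Kif5a was -3.68 without HET-8304.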

How the results depend on the processing

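The 70 reported changes of the 9 genes were recomputed under other settings, which gave 1552 values. Of these 1446 kept the sign of the reported value and 106 did not, and none of the 106 was called. The number of members called was 0 in each of the 8 tests and under all settings but 1: for the heterozygous effect at 17 minus 3 months it ran from 0 to 1 with 1 animal left out, the 1 being Grn without HET-7796. Over all genes the number called moved more. It was 7 for homozygotes against wild types at 3 months, from 2 to 26 under other settings and from 2 to 118 with 1 animal left out (118 without HET-8304). At 17 months it was 84, from 5 (sex term) to 932 (RPKM) and from 1 to 368 (368 without HET-7796). It was 5 for heterozygotes at 3 months (1 to 89, and 3 to 467), 28 at 17 months (0 to 220, and 0 to 239), and 3 and 219 between the mutants (1 to 7 and 45 to 299, and 3 to 66 and 104 to 246). The highest counts came without HET-8309 for both 3-month comparisons with heterozygotes and without WT-7785 for heterozygotes against wild types at 17 months, and the lowest at 17 months without WT-7783, WT-7943, HOM-7893 or HOM-7899 (homozygotes), WT-7783 or HET-7794 (heterozygotes) and HOM-7899 (between the mutants). The age differences were called for 29 genes in homozygotes (26 to 556, and 1 to 667) and 79 in heterozygotes (44 to 194, and 19 to 332), the highest of both without HET-7796 and the lowest in heterozygotes without WT-7943. With median centring the calls of homozygotes against wild types were 22 up and 4 down at 3 months, where 2 up and 5 down are reported, and 204 up and 405 down at 17 months, where 55 up and 29 down are. With quantile normalization they were 1 and 1, and 278 and 355. Between the mutants at 17 months 199 up and 20 down became 153 and 94, and 131 and 64. The cause was not tested. With 1 animal of a group left out, 3 remain and share the spread of the other groups. Depth limits Optn most, at 20.7 alignments per kilobase in the lowest library. No paired analysis was possible because the columns carry animal numbers and not the replicate numbers of the labels.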
